A study of Mus musculus with 6 samples.

Results

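Ppara, the gene of a fatty acid sensing nuclear receptor, and Acadl, Eci2 and Vnn1, which act in fatty acid oxidation and coenzyme A turnover, were followed in mouse intestinal epithelial cells. The 4 genes were chosen by name from the 1386 genes and loci of the deposited table. Wild-type mice on a regular diet, 8 weeks old at the start, received Akkermansia muciniphila (Akk), a bacterium of the intestinal mucus, by mouth every day for 7 weeks at 400000000 bacteria a day, and control mice of the same genotype and diet received phosphate-buffered saline (PBS). RNA was sequenced from 3 libraries per group, numbered 1 to 3. Sex and strain were not given in the sources used here, nor whether each library came from its own mouse. P-values therefore measure the spread between these libraries only, and that may be technical. The title of the series places the study in the jejunum and names lipid absorption and AMPK.

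PPAR alpha, the product of Ppara, binds fatty acids and their derivatives, pairs with the retinoid X receptor and switches on genes of fatty acid uptake, mitochondrial and peroxisomal beta-oxidation and ketogenesis. In the small intestine it is known as a sensor of dietary fat in enterocytes. Acadl encodes long-chain acyl-CoA dehydrogenase, which performs the first step of a round of mitochondrial beta-oxidation. Eci2 encodes an enoyl-CoA delta isomerase, which moves the double bond of unsaturated fatty acids so that their oxidation can proceed, and is found in peroxisomes and mitochondria. Vnn1 encodes vanin-1, a membrane-anchored pantetheinase that releases pantothenate and cysteamine from pantetheine, a breakdown product of coenzyme A; it is a known PPAR alpha target.

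Entry into the table required a difference between these same 6 libraries: no p-value in the authors' deposited table exceeds 0.0498 and no fold is under 1.50. The direction of each gene was fixed by that choice, so the differences below describe these libraries and a second test on them is not independent evidence. In the authors' deposited table Ppara, Acadl and Eci2 are lower in Akk, with log2 fold changes of -0.81, -0.63 and -0.59 and p-values of 0.00665, 0.0181 and 0.000841. Vnn1 is higher in the authors' deposited table, with a log2 fold change of 1.22 and a p-value of 0.00300. Among the genes that the authors' deposited table gives as lower, 99.4% had a larger fold than Eci2, 98.1% than Acadl and 86.6% than Ppara. Vnn1 had a larger listed fold than most genes in its direction, of which 16.8% exceeded it.

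Ppara lies on chromosome 15 (85734983 to 85802819, plus strand, GRCm38), Acadl on chromosome 1 (66830839 to 66863277, minus strand), Eci2 on chromosome 13 (34977748 to 35027096, minus strand) and Vnn1 on chromosome 10 (23894688 to 23905343, plus strand); all are protein coding. Promoter sequences from RefSeq (GRCm38.p6) matched 3 of the 4; Vnn1 is named only. The 250 bases before the RefSeq start are shown for Ppara, Acadl and Eci2, the 3 genes that had a promoter sequence. Capitals mark each CpG dinucleotide. The windows are chr15:85735526-85735775 (plus strand), chr1:66863310-66863559 (minus strand) and chr13:34994145-34994394 (minus strand). The windows of Ppara and Eci2 lie inside the gene spans above, which come from GENCODE and reach to transcripts that start further upstream, so they belong to a start within the span and not to its outer end.
Ppara: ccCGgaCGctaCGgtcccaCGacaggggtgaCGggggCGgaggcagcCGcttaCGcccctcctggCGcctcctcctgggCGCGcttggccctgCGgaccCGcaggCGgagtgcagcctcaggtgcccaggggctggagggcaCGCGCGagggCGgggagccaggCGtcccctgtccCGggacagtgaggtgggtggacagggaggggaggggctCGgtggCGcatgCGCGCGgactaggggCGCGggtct
Acadl: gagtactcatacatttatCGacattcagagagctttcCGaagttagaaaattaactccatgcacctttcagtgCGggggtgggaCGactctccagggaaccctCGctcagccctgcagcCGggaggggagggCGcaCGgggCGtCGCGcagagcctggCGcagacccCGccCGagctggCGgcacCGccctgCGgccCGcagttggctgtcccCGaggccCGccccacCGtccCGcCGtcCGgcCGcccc
Eci2: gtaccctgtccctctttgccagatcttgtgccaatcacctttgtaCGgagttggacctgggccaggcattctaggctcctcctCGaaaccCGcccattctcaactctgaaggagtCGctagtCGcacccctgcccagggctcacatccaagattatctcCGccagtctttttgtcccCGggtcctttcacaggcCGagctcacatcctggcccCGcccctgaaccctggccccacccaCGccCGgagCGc
The Ppara window held 27 CpG dinucleotides at 76.4% GC, the Acadl window 25 at 68.0% and the Eci2 window 12 at 61.2%, against medians of 6 CpG and 52.4% GC over 32851 promoter windows of the same length. Fewer CpG than in Ppara were found in 91.4% of windows, than in Acadl in 89.3% and than in Eci2 in 66.5%. The direct repeat to which PPAR and its partner bind (AGGTCANAGGTCA, both strands) was searched for with up to 3 of its 12 fixed bases mismatched. It was in none of the 3 windows, while 21.3% of all windows held it at that stringency, 3.24% with up to 2 mismatches and 0.0335% without a mismatch.

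The depth implied by the ratio of count to FPKM (fragments scaled to gene length and library size) was 23614092 to 29441074 fragments per library. PBS replicate 2 stood apart. Of the 1040 genes listed as lower, 1022 peaked in it, and the median excess over the average of the other PBS libraries was 5.77-fold. Markers of crypt cells, which line the base of the epithelium, were raised in it. The summed FPKM of the Paneth cell markers (8 of 9 listed) was 6880 in PBS replicate 2, against 192 and 205 in PBS replicates 1 and 3 and 149 to 163 in Akk. For proliferation genes (11 of 12 listed) the sums were 322, against 33.6 and 25.6, and 12.2 to 19.9 in Akk, and for stem cell markers (4 of 8) 584, against 11.7 and 12.6, and 5.80 to 8.66 in Akk. Of the 14 enterocyte markers Apoa4, a chylomicron apolipoprotein, is listed; it had 467 FPKM in PBS replicate 2, 1810 and 3100 in PBS replicates 1 and 3, and 3660 to 5060 in Akk. Clps, pancreatic colipase and the 1 listed of 8 liver, pancreas and fat markers, had 66.1 FPKM in PBS replicate 2, 1.24 and 1.56 in PBS replicates 1 and 3, and 2.27 to 2.45 in Akk. The part of these cells in the differences of the 4 genes was not tested. Values without PBS replicate 2 stand beside each, but they are not free of marker differences. With that library left out, median edgeR log2 fold changes of Akk over PBS were -0.88 (proliferation), -0.92 (stem cell) and -0.49 (Paneth cell). Of these genes edgeR called 3, 2 and 0, each lower in Akk. Apoa4 stood at 0.85 (SE 0.34), and Clps, lower with all libraries, turned to 0.75 (SE 0.32). No marker of T cells, B cells, myeloid cells or stroma is listed, and none of the 26 listed markers was at 0 in any library. Defining epithelial markers such as Epcam and Vil1 are not listed either, so their values are not known here. In such bulk RNA, fewer cells of a type and less RNA per cell cannot be told apart.

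Of the 4 genes, 3 (Ppara, Acadl and Eci2) were lower in every Akk library than in every PBS library, as were 65.0% of all listed genes. The FPKM of Ppara was 3.84, 7.45 and 3.79 in the PBS libraries 1 to 3, and 2.41, 1.28 and 2.14 in Akk replicates 1 to 3. The groups did not overlap, PBS replicates 1 and 3 lay close together, and PBS replicate 2 was the highest of the 6 libraries. The means were 5.03 ± 2.10 in PBS and 1.94 ± 0.591 in Akk (SD, n = 3), 2.59-fold higher in PBS, or 1.96-fold without PBS replicate 2. The receptor was the least abundant of the 4 genes per length, and its lowest count, 167 reads in Akk replicate 2, has a counting error of 7.74%, below the coefficient of variation of 30.5% among the Akk libraries.

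Acadl had the highest level per length of the 4 genes in PBS. Its FPKM was 58.5, 76.0 and 60.8 in the PBS libraries, and 28.6, 40.4 and 24.2 in Akk replicates 1 to 3. Every Akk library lay below every PBS library, and the nearest pair, Akk replicate 2 and PBS replicate 1, were well separated. The means were 65.1 ± 9.48 in PBS and 31.1 ± 8.36 in Akk (SD, n = 3), 2.10-fold higher in PBS, or 1.92-fold without PBS replicate 2. Of the 3 genes listed as lower, Acadl depended least on PBS replicate 2: that library was 1.27 times the average of the other PBS libraries, a smaller excess than in 97.8% of the genes listed as lower.

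Eci2 also separated the groups. Its FPKM was 23.4, 38.2 and 22.2 in the PBS libraries, and 15.3, 11.6 and 13.4 in Akk replicates 1 to 3. PBS replicate 2 was again the highest library, while the 3 Akk libraries varied little (coefficient of variation 13.5%). The means were 27.9 ± 8.89 in PBS and 13.4 ± 1.81 in Akk (SD, n = 3), 2.08-fold higher in PBS, or 1.70-fold without PBS replicate 2. The value of Eci2 is the least certain in identity. Of the 50-base words of its annotated transcripts, 11.1% also occur in transcripts of other genes (2.12% in its neighbour Eci3, an isomerase paralog), against 0 for the other genes described. It also overlaps Gm16984, an antisense transcript, over 12705 bases of its span. Acadl overlaps Gm15793, a processed pseudogene, over 495 bases and Gm27934, a small nuclear RNA, over 63 bases. How much of these overlaps lies in exons was not measured, and the strand setting of the counting is not given.

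Vnn1 was the gene listed in the opposite direction, and its groups overlapped. Its FPKM was 17.2, 25.3 and 36.0 in the PBS libraries, and 77.5, 69.4 and 26.1 in Akk replicates 1 to 3. Akk replicates 1 and 2 lay above all PBS libraries, whereas Akk replicate 3 lay below PBS replicate 3 and close to PBS replicate 2. The means were 57.7 ± 27.6 in Akk and 26.2 ± 9.41 in PBS (SD, n = 3), 2.20-fold higher in Akk, or 2.17-fold without PBS replicate 2. PBS replicate 2 was not unusual for this gene, at 0.949 times the mean of PBS replicates 1 and 3. Akk replicate 3 was the lowest Akk library also for 236 of the 346 genes listed as higher.

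**Figure D1:**
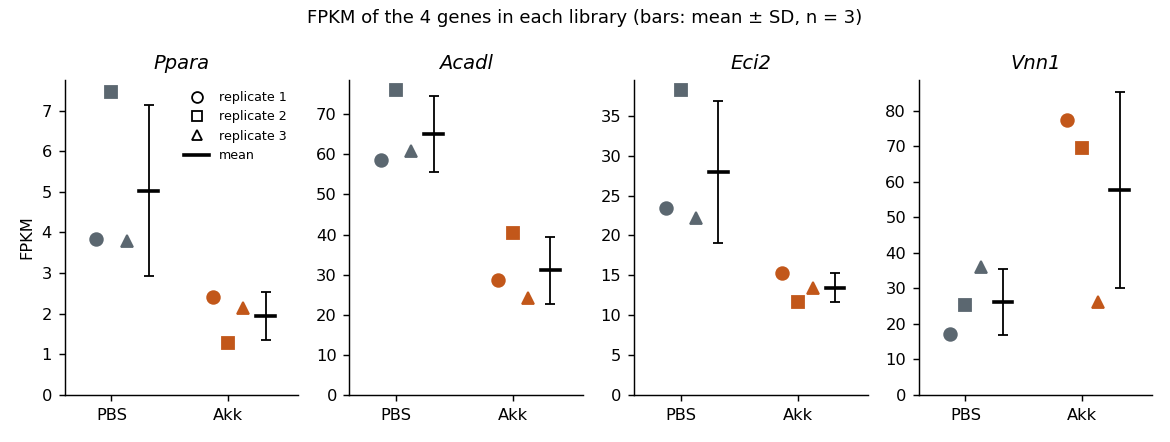
FPKM (vertical axis, linear from 0) of Ppara, Acadl, Eci2 and Vnn1 in each PBS and Akk library; symbols mark the replicate number and bars the mean ± SD of 3 libraries. For Ppara, Acadl and Eci2 all Akk libraries lie below all PBS libraries and PBS replicate 2 is highest, while Vnn1 in Akk replicate 3 (26.1) lies within the PBS range of 17.2 to 36.0.

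Ordered by mean FPKM, the PBS libraries had Acadl (65.1), Eci2 (27.9), Vnn1 (26.2) and Ppara (5.03), of which Eci2 and Vnn1 differed by less than their spread. In the Akk libraries the order was Vnn1 (57.7), Acadl (31.1), Eci2 (13.4) and Ppara (1.94), and Vnn1 and Acadl differed by less than the spread of Vnn1. Acadl was thus first in every PBS library and Vnn1 in every Akk library.

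None of the 4 genes passed the quasi-likelihood test of edgeR over all 1386 listed genes with Benjamini-Hochberg adjustment, as was the case for every listed gene (0.0% called, smallest adjusted p = 0.0861). Of the 4, 1 (Acadl) had an unadjusted p under 0.05, as had 791 of all genes. The fitted log2 fold change of Akk over PBS was -1.33 for Ppara (SE 0.66, adjusted p = 0.102). It was -1.07 for Acadl (SE 0.43, adjusted p = 0.0861), -1.03 for Eci2 (SE 0.51, adjusted p = 0.102) and 1.14 for Vnn1 (SE 0.55, adjusted p = 0.0988). The median over all genes listed as lower was -2.19, and over those listed as higher 0.74. The 3 genes listed as lower thus differed less than most genes in that direction, and Vnn1 more. The authors' deposited log2 fold changes of Ppara, Acadl and Eci2 (-0.81, -0.63 and -0.59) were smaller in size than these fits. That of Vnn1 (1.22) was not. The authors' test and scaling were not given in the sources used here. On the log2(FPKM + 0.1) scale the exact two-sided permutation test gave p = 0.1 for Ppara, Acadl and Eci2, the smallest that 3 against 3 libraries allow, and p = 0.2 for Vnn1. DESeq2 called 1 of the 4, Acadl (adjusted p = 0.0346; 69.9% of genes with an adjusted p called), and limma-voom 0 of the 4 (0.144% called).

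Without PBS replicate 2, edgeR called Acadl and Eci2, with log2 fold changes of -0.94 (SE 0.25, adjusted p = 0.0457) and -0.74 (SE 0.19, adjusted p = 0.0441). Ppara, at -0.94 (SE 0.30, adjusted p = 0.0586), and Vnn1, at 1.12 (SE 0.53, adjusted p = 0.11), did not pass. Over all 16 alternatives to the processing, adjusted p ranged from 0.0346 to 0.976 for Acadl, 0.0441 to 0.818 for Eci2, 0.0524 to 0.989 for Ppara and 0.0545 to 0.306 for Vnn1. The 2 of 4 called without PBS replicate 2 stand beside 19.5% of all listed genes called in the same fit, 17.7% with Akk lower. The biological coefficient of variation was then 0.29, against 0.707 with all libraries. The median log2 fold change of the genes listed as lower moved from -2.19 to -0.78 when PBS replicate 2 was left out, whereas Ppara, Acadl and Eci2 moved from -1.33, -1.07 and -1.03 to -0.94, -0.94 and -0.74. Without that library the 3 genes therefore lay near the median of their direction. The Akk libraries remained below PBS replicates 1 and 3 for each of them (65.2% of all listed genes, and 65.0% with PBS replicate 2 included). With PBS replicate 2 included, 901 of the 1040 genes listed as lower did not overlap between groups.

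**Figure D2:**
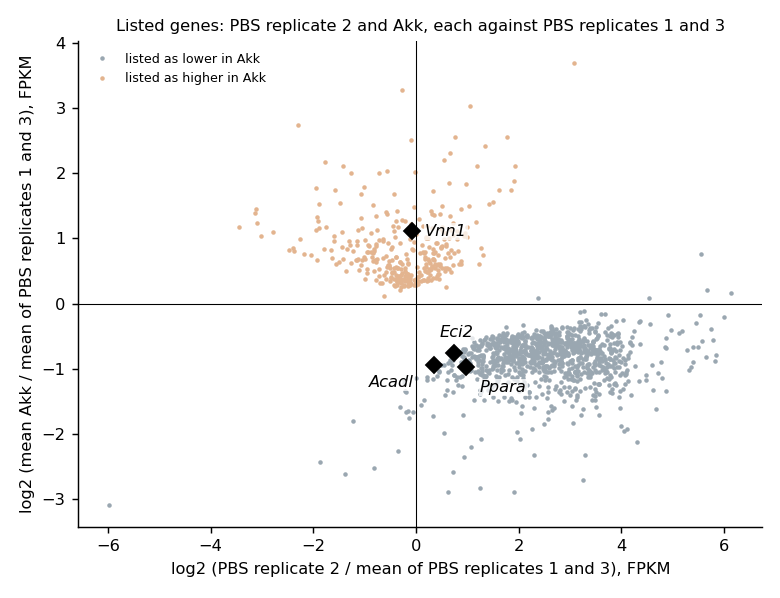
Each point is 1 of 1384 listed genes with FPKM above 0 in PBS; the horizontal axis gives the log2 ratio of PBS replicate 2, and the vertical axis that of the Akk mean, to the mean of PBS replicates 1 and 3. Genes listed as lower mostly extend to the right (median 5.77-fold in PBS replicate 2), whereas Acadl, Eci2 and Ppara (black diamonds) lie at 1.27-fold, 1.67-fold and 1.95-fold, and Vnn1 lies next to the vertical line at 0.949-fold.

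Ratios between the genes within a library do not depend on any library-wide scaling. The ratio of Vnn1 to Acadl was 0.295, 0.333 and 0.592 in the PBS libraries and 2.71, 1.72 and 1.08 in Akk replicates 1 to 3, with no overlap. The ratio of Vnn1 to Eci2 was 0.737, 0.662 and 1.62 in PBS and 5.08, 5.96 and 1.96 in Akk. That of Vnn1 to Ppara was 4.49, 3.39 and 9.51 in PBS and 32.2, 54.4 and 12.2 in Akk. All 3 ratios were thus higher in each Akk library than in any PBS library, including Akk replicate 3, in which Vnn1 itself was within the PBS range. The mean ratio was 4.52 times as high in Akk for Acadl, 4.31 times for Eci2 and 5.68 times for Ppara as the denominator. Because the authors selected Vnn1 as higher and the other genes as lower in these libraries, these differences are a description, with no test. Among the genes listed as lower, the ratio of Acadl to Eci2 was 2.41 ± 0.382 in PBS and 2.38 ± 0.938 in Akk (SD, n = 3), a difference below the spread. The ratio of Acadl to Ppara overlapped between the groups, with its highest value (31.6) in Akk replicate 2, where Ppara was lowest and Acadl highest among the Akk libraries. The ratio of Eci2 to Ppara was 5.13 to 6.10 in PBS and 6.23 to 9.12 in Akk.

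**Figure D3:**
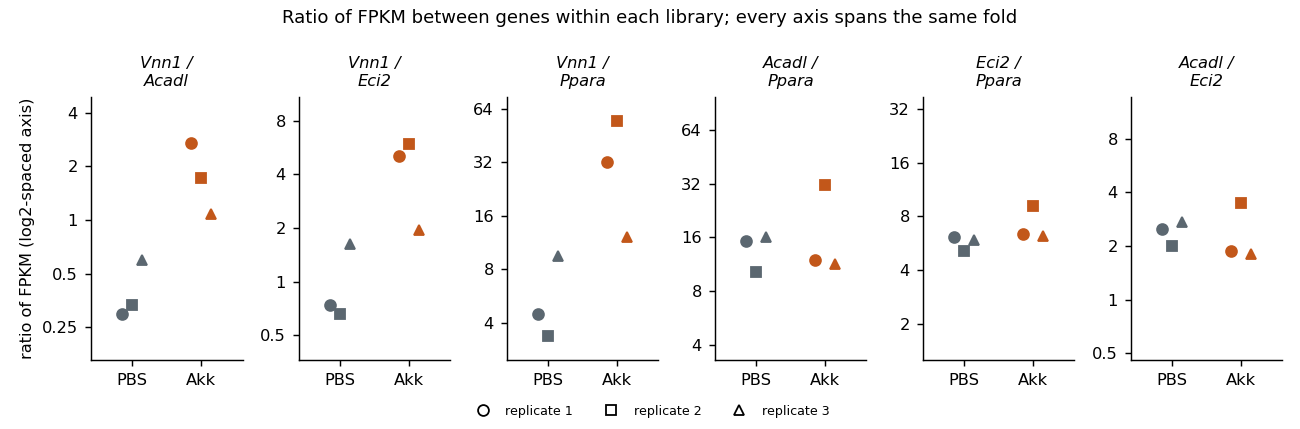
Ratio of FPKM between pairs of the 4 genes in each library, on log2-spaced vertical axes that each span the same fold; symbols mark the replicate number. The 3 ratios with Vnn1 as numerator are higher in all Akk libraries (1.08 to 2.71 over Acadl, against 0.295 to 0.592 in PBS), while those of Acadl to Ppara and Acadl to Eci2 overlap.

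Other genes of the pathway were taken from lists of PPAR alpha partners, targets and oxidation enzymes, which hold 122 genes in all. Of these, 12 were listed (the 4 genes included), 7 lower and 5 higher in Akk; 0 of the 12 passed edgeR over all genes, DESeq2 called 5, and without PBS replicate 2 edgeR called 4, all lower. Of all 1386 listed genes, 1040 were lower and 346 higher. Over all listed genes DESeq2 called 69.9%, and edgeR without PBS replicate 2 called 19.5%, 17.7% with Akk lower. The median log2 fold change of the 12 was -1.05, or -0.76 without PBS replicate 2, beside -1.85 and -0.66 over all listed genes. The 7 genes listed as lower each had their highest value in PBS replicate 2 and no overlap between groups, as was common in that direction: of all 1040 genes listed as lower, 1022 were highest in that library and 901 did not overlap. Of the 5 listed as higher 1, Angptl4, had no overlap (9.38% of all listed genes lay higher in every Akk library).

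Of 24 receptors, partners and cofactors, Ppara and Lpin1 were listed. Lpin1, a phosphatidate phosphatase that also acts as a coactivator of PPAR alpha, had an FPKM of 0.976, 4.38 and 0.832 in the PBS libraries and 0.438, 0.421 and 0.651 in Akk. It thus shared the direction of Ppara, with a far larger excess in PBS replicate 2 (4.85-fold over the other PBS libraries, against 1.95-fold for Ppara). The relatives Ppard and Pparg and the retinoid X receptors Rxra, Rxrb and Rxrg were not listed.

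Of 26 genes of mitochondrial beta-oxidation, 3 were listed, all lower: Acadl, Eci2 and Cpt1a. Most listed genes were lower (1040 of 1386). Cpt1a, which controls entry of long-chain fatty acids into mitochondria, had an FPKM of 18.1, 69.9 and 16.8 in the PBS libraries and 8.94, 7.26 and 8.97 in Akk. Its excess in PBS replicate 2 was 4.00-fold, and without that library its log2 fold change was -1.06 (SE 0.19, edgeR adjusted p = 0.0352). Within the acyl-CoA dehydrogenase family 3 of 12 were listed, all lower: Acadl, and Acadsb and Ivd, which act on branched-chain acyl-CoAs from amino acids. Acadsb had 2.65 ± 2.26 FPKM in PBS and 0.798 ± 0.126 in Akk, and Ivd 7.95 ± 6.88 and 2.01 ± 0.497 (SD, n = 3). Both had excesses in PBS replicate 2 (3.90-fold and 4.00-fold) above that of Acadl, and of these 2 edgeR called Ivd when that library was left out (adjusted p = 0.045). The medium-, short- and very-long-chain dehydrogenases Acadm, Acads and Acadvl were not listed.

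Of 24 genes of peroxisomal beta-oxidation, Eci2 was listed as lower and Crot, Scp2 and Acaa1b as higher. Crot, which transfers medium-chain acyl groups to carnitine, had an FPKM of 33.2, 26.7 and 43.6 in the PBS libraries and 76.6, 62.7 and 34.2 in Akk. Scp2, a peroxisomal thiolase and sterol carrier, had 148 ± 37.3 in PBS and 249 ± 55.8 in Akk, and Acaa1b, a peroxisomal thiolase, 3.79 ± 2.17 and 8.28 ± 3.17 (SD, n = 3). The groups overlapped for all 3, as for Vnn1, and none passed edgeR with or without PBS replicate 2. Of 27 PPAR alpha targets outside or at the entry of these pathways, Vnn1 and Angptl4 were listed as higher and Cpt1a as lower. Angptl4, a secreted inhibitor of lipoprotein lipase, had 3.64, 2.88 and 2.16 in PBS and 6.39, 7.75 and 4.12 in Akk, a log2 fold change of 1.10 (SE 0.61, edgeR adjusted p = 0.131). Akk replicate 3 was the lowest Akk library for all 5 genes listed as higher. None of the 5 ketogenesis genes was listed, and Vnn1 was the only listed gene of 14 in vanin and coenzyme A metabolism; its neighbour and paralog Vnn3 was not listed.

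**Figure D4:**
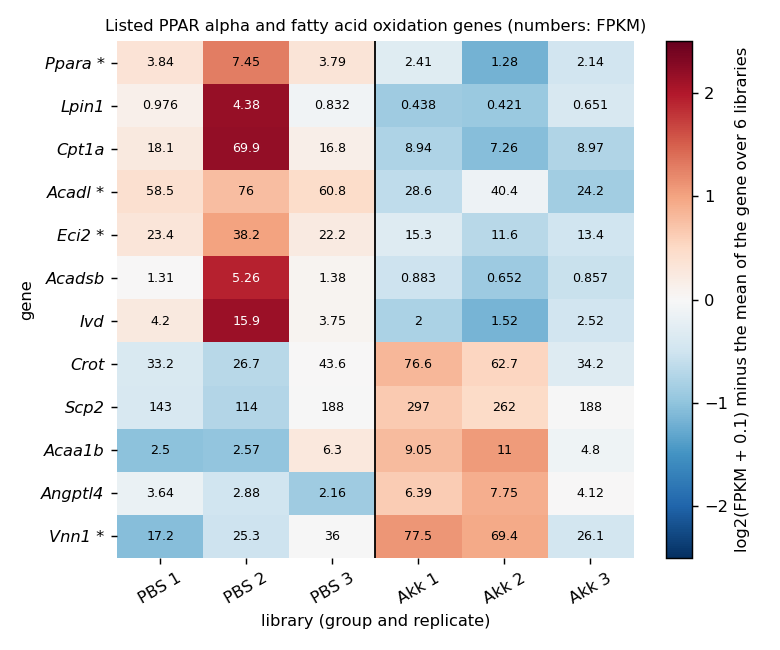
The 12 listed genes of PPAR alpha and fatty acid oxidation (rows; an asterisk marks the 4 genes followed) in the 6 libraries (columns); colour gives log2(FPKM + 0.1) minus the mean of the gene and the printed number its FPKM. The 7 upper rows are highest in PBS replicate 2, from 76.0 for Acadl to 4.38 for Lpin1, and the 5 lower rows have their lowest Akk value in replicate 3.

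The listed genes with the most similar pattern were found by the root-mean-square difference of log2(FPKM + 0.1) profiles over the 6 libraries, each centred on its mean, among 1156 other named genes with a mean FPKM of at least 1. Those nearest to Ppara were Tomm6, a subunit of the mitochondrial import pore (0.145), Larp4, an RNA-binding protein (0.146), and Wwp1, a ubiquitin ligase (0.165). Those nearest to Acadl were Uxt, a prefoldin-like chaperone (0.140), Ppa2, a mitochondrial pyrophosphatase (0.231), and Hsh2d, a signalling adaptor (0.237). Eci2 was closest to Pglyrp1, a peptidoglycan recognition protein (0.103), Psmb7, a proteasome subunit (0.112), and Tspo, a protein of the outer mitochondrial membrane (0.122). Vnn1 was closest to Npas2, a clock transcription factor (0.185), Rtn4r, a receptor of myelin proteins (0.219), and Slc5a8, a sodium-coupled monocarboxylate transporter (0.223). Npas2 had an FPKM of 2.95, 4.54 and 4.40 in PBS and 13.1, 11.5 and 3.83 in Akk, the same order of Akk libraries as Vnn1. Slc5a8 was also lowest among the Akk libraries in replicate 3, with 8.07 against 17.7 and 23.1 in replicates 1 and 2. The genes followed were not each other's nearest: Eci2 ranked 20 by likeness to Ppara (0.229) and 20 to Acadl (0.334), Acadl ranked 292 to Ppara (0.520), and Vnn1 ranked 1054 to Ppara (1.40).

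The direction of Acadl and Eci2, and the size of the difference in Ppara, depended on the scaling. Factors computed from the listed genes assume that most genes are alike between groups, and this table was selected for differences. They moved the overall median log2 fold change from -1.85 to -0.21 (TMM), -0.15 (RLE) and -0.63 (upper quartile). With TMM and RLE factors Acadl came to 0.03 and 0.06 and Eci2 to 0.17 and 0.21. Ppara came to -0.05 and -0.01, and Vnn1 to 2.17 and 2.20. Upper-quartile factors reversed none of them, with Acadl at -0.34, Eci2 at -0.20, Ppara at -0.43 and Vnn1 at 1.79. With all 6 libraries, under these factors and with the implied depth alike, the fold changes of Ppara, Acadl and Eci2 lay above the median of all listed genes; with the implied depth all 3 were also below 0. Without PBS replicate 2 (implied depth) the order turned, and Ppara (-0.94), Acadl (-0.94) and Eci2 (-0.74) lay below the median of -0.66.

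**Figure D5:**
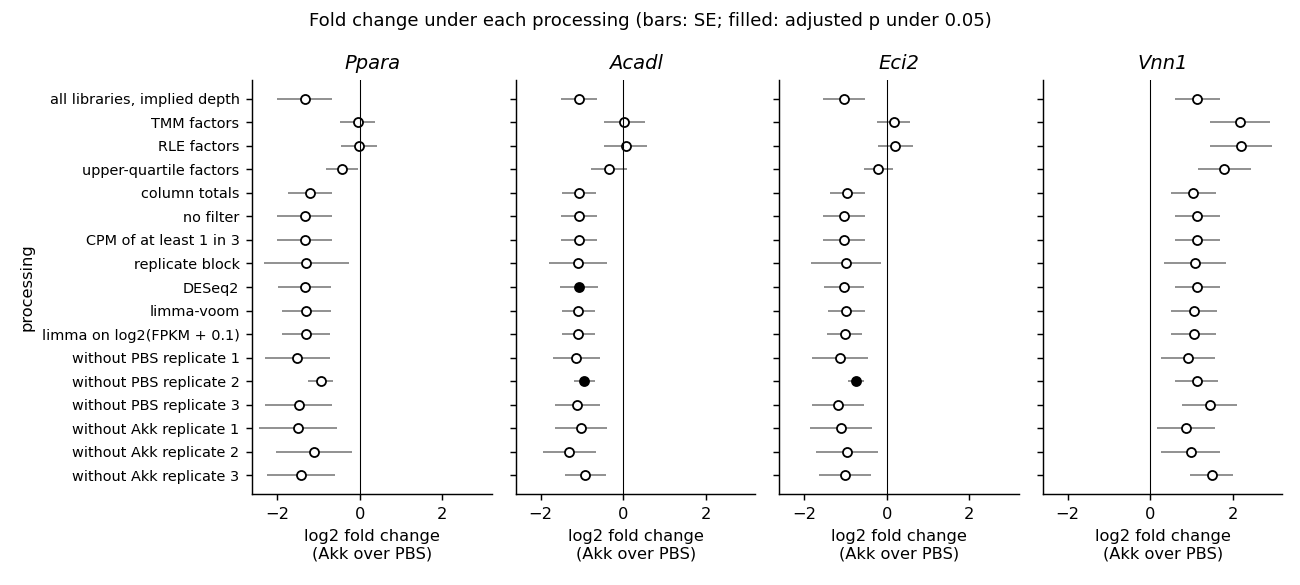
Log2 fold change of Akk over PBS (horizontal axis) for each gene under each processing (rows), with the SE as a bar; filled points have an adjusted p under 0.05. The filled points are Acadl with DESeq2 and Acadl and Eci2 without PBS replicate 2, and TMM and RLE factors shift all 4 genes to the right, Acadl to 0.03 and 0.06.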

How the data were processed

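Trizol was used for RNA extraction and libraries were Illumina mRNA libraries, per the labels' protocols. The build is mm10, per the submitters' processing notes; aligner, counter, annotation and strand setting were not given in the sources used here. Each library has read counts per gene and FPKM deposited by the authors, per the file headers. A deposited p-value and log2 fold change (Akk over PBS) stand beside them, and the header does not tell if that p-value is adjusted. Of 1388 lines, 2 held only annotation text and were left out.

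Column totals of selected genes are not depth. Relative depth was the median ratio of count to FPKM over 560 genes with at least 200 counts in every library; absolute depth also used GENCODE M21 exon lengths (548 genes). The counts were compared in edgeR 4.0.16 (quasi-likelihood, filterByExpr, which removed 0 genes, R 4.3.3), Akk against PBS, no replicate term, implied depth as library size, Benjamini-Hochberg over all 1386 genes at 0.05. The SE is the log2 fold change divided by the square root of F. DESeq2 1.42.0, limma 3.58.1 (voom), other factors and filters, a replicate block and each library left out were alternatives; limma on log2(FPKM + 0.1) was chosen after seeing the data. The fits by edgeR, DESeq2 and limma-voom were tried on simulated counts whose means came from the libraries other than PBS replicate 2. The simulation held no library that stood apart, so it does not show how the fits behave with PBS replicate 2. Permutation tests enumerated all splits.

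The genes and lists were chosen with earlier results of these data known. Named were the 4 genes, up to 6 listed genes of each list with the smallest p, the 3 nearest profiles for each gene and up to 2 markers per list. A gene that is not listed either did not meet the authors' thresholds or was not measured. Counting errors cover counting only.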

Additional observations from a re-analysis of the deposited data

How the results depend on the processing

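With all libraries and the implied depth, 0 listed genes, 0 of the 4 genes and 0 of the 12 pathway genes passed edgeR. The counts over all listed genes became 656 with column totals as library size, 6 with the replicate block, 786 with DESeq2 (262 adjusted p were NA), 2 with limma-voom and 1 with limma on log2(FPKM + 0.1), and ranged from 0 to 734 with 1 library left out. Those of the 4 genes became 1 with DESeq2 and ranged from 0 to 2 with 1 library left out; the 2 came without PBS replicate 2. Those of the pathway genes became 2 with column totals and 5 with DESeq2 and ranged from 0 to 4. Acadl passed with DESeq2 at -1.07. Acadl turned to 0.03 and Eci2 to 0.17 with TMM factors, and to 0.06 and 0.21 with RLE factors. With upper-quartile factors Acadl stayed at -0.34 and Eci2 at -0.20. The factor of PBS replicate 2 was 4.00 with TMM, 4.39 with RLE and 3.06 with the upper quartile. All these factors rest on the listed genes alone, a set selected for differences. Why PBS replicate 2 received factors of this size was not tested. With 1 library left out, log2 fold changes ranged from -1.51 to -0.94 for Ppara, -1.30 to -0.92 for Acadl, -1.18 to -0.74 for Eci2 and 0.87 to 1.49 for Vnn1. Vnn1 was highest without Akk replicate 3. Ppara and Vnn1 kept their sign under all 16 alternatives and passed in none. For Ppara the sign means little with TMM and RLE factors, where its log2 fold change was -0.05 (SE 0.42) and -0.01 (SE 0.44). Differences of mean log2 FPKM kept their direction under all 8 alternatives (other pseudocounts and each library left out) for each of the 4 genes. For Ppara, Acadl and Eci2, whose groups did not overlap, these alternatives could not change the direction. All of them keep the scaling of the deposited FPKM, so they do not bear on the dependence on scaling. Same-numbered libraries deviated from their group means with correlations of 0.24, -0.08 and -0.30, so the numbers were not taken as pairs; with the replicate block the fold changes were -1.29, -1.09, -0.99 and 1.08 for Ppara, Acadl, Eci2 and Vnn1 and none passed. Filtering on low counts left all 1386 genes in, so it tests nothing here. The cause of these changes was not tested.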

Other observations

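The pathway annotation in the authors' deposited table, looked up after the values were seen, gives further listed genes around PPAR alpha. It assigns 11 listed genes to PPAR signaling, 7 lower and 4 higher, and 6 to fatty acid degradation, 5 lower and 1 higher. Of all 1386 listed genes, 1040 were lower and 346 higher. Of 8 listed peroxisomal genes, 4 were lower and 4 higher. The lower ones, besides Eci2, were Idh2, an NADP-dependent isocitrate dehydrogenase (6.80 FPKM in Akk, 28.0 in PBS, means of 3 libraries), Far2, a fatty acyl-CoA reductase (5.37 and 19.1), and Slc25a17, a peroxisomal carrier (2.38 and 7.92). The higher ones, besides Crot, Scp2 and Acaa1b, included Ephx2, the soluble epoxide hydrolase (237 in Akk and 119.6 in PBS). Aldh1b1, a mitochondrial aldehyde dehydrogenase, had 54.4 in Akk and 207 in PBS. Slc27a1, a fatty acid transport protein, had 0.914 and 2.26, and its groups overlapped. Each of the genes given here as lower was highest in PBS replicate 2. With all 6 libraries edgeR called none of them (at an unadjusted p under 0.05 it found 791 genes in all); without PBS replicate 2, Idh2, Far2 and Aldh1b1 passed, with log2 fold changes of -1.12, -1.12 and -1.10 (adjusted p = 0.0409, 0.0433 and 0.0411). In the same fit the PPAR signaling genes Fads2, Pck2 and Scd2, at -1.40, -1.30 and -0.92, passed too (edgeR adjusted p = 0.0352, 0.0352 and 0.049), and 19.5% of all listed genes did, 17.7% with Akk lower.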
